A study of Homo sapiens with 12 samples.

Results

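PEO-4 cells, from a high-grade serous carcinoma of the ovary, were compared in their RNA with T1074, a line of immortalized ovarian epithelial cells. All 4 PEO-4 libraries and all 4 T1074 libraries entered the comparison, which makes 8 of the 12 libraries of the series. There were 18644 genes with enough counts to be tested, of 61533 annotated. The study built protein databases from the RNA of these lines and of another ovarian line, for the search of proteins outside the annotated reading frames. PEO-4 was set up from ascites after resistance to chemotherapy, carries the label ovarian cystadenocarcinoma and was grown in RPMI medium with glutamine. T1074 carries the label ovarian epithelial cells, is given the name SV-40 in the labels and was grown in Prigrow I medium. Both lines carry the genotype label WT and had fetal bovine serum and penicillin-streptomycin in the medium, and no treatment is named. The RNA was depleted of rRNA, made into strand-specific libraries and read as paired ends. Each line is a single cell line, and the line and its medium cannot be told apart. All 61533 gene identifiers are human, so that no transcript of the SV40 virus was counted. Whether the replicates came from separate cultures is not stated in the sources used here, so that a p-value reflects the spread among these libraries alone, which may be technical.

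Normal ovarian surface epithelium is a mesothelium that makes keratins together with mesenchymal filaments, and it has little of the adhesion protein E-cadherin. High-grade serous carcinoma is thought to arise mostly in the secretory epithelium of the fallopian tube, and it is known for the factor PAX8, estrogen receptor, the antigen CA125 (MUC16) and widespread changes in DNA copy number. Immortalization with the large T antigen of SV40 acts in part through binding of the RB protein, which releases the E2F factors.

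Depth, as the total of expected counts, was 38690926 to 47148142 per library in PEO-4 and 19780815 to 38583349 in T1074, with T1074 replicate 1 the lowest. In T1074 replicate 1 rRNA and rDNA-like genes took 21.4% of the counts, against 4.36% to 5.12% in the other T1074 libraries and 1.57% to 6.74% in PEO-4. PEO-4 replicates 1 and 4 were closer to each other than any other pair. Their counts of 14097 protein-coding genes differed by 2.86 in chi-square over its degrees of freedom, and 12.2% of these genes lay beyond the 95% range of sampling noise. The other pairs within a line gave 23.4 to 168 and 46.4% to 75.4%. Over all gene types replicates 1 and 4 differed by 104 in the same measure, within the 40.2 to 322 of other pairs. Their log2 levels still correlated best, at 0.9971 against 0.9786 to 0.9948 for the other pairs. Neither measure can tell whether they came from separate cultures. They were kept as 2 libraries, and the counts with both joined into 1 sample are given below.

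Levels are in CPM, the counts scaled by library size and TMM factor. They are given for replicates 1 to 4 in that order, or as mean ± SD (n = 4 libraries of a line). Differences are log2 fold changes of PEO-4 over T1074 with their standard error, from edgeR's quasi-likelihood test with Benjamini-Hochberg adjustment over all genes tested. A gene is called higher or lower in PEO-4 at an adjusted p under 0.05. By this rule 7215 genes were higher and 6452 were lower in PEO-4, which is 38.7% and 34.6% of the genes tested and 73.3% together. At a change of at least 2-fold the counts were 5030 and 4131, or 27.0% and 22.2%. The median log2 fold change over all genes tested was 0.09. With scaling by library size only, which moved the median by -0.27, 5679 genes were higher and 7530 lower, so that 43.0% of the calls were higher against 52.8%. Without T1074 replicate 1 the test gave 6868 higher and 6792 lower genes, and with PEO-4 replicates 1 and 4 joined it gave 7024 and 6207. With so many genes called, the count of called members of a gene list is to be read against these shares.

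Members of 41 lists of genes with a shared role were counted, and the lists fall on both sides of 0 in the plot of their members. Of 1167 listed genes 1165 were matched, 1044 were tested and 849 were called. Members and lists were chosen with earlier results of these data known, so the counts are descriptions and not tests.

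**Figure D1:**
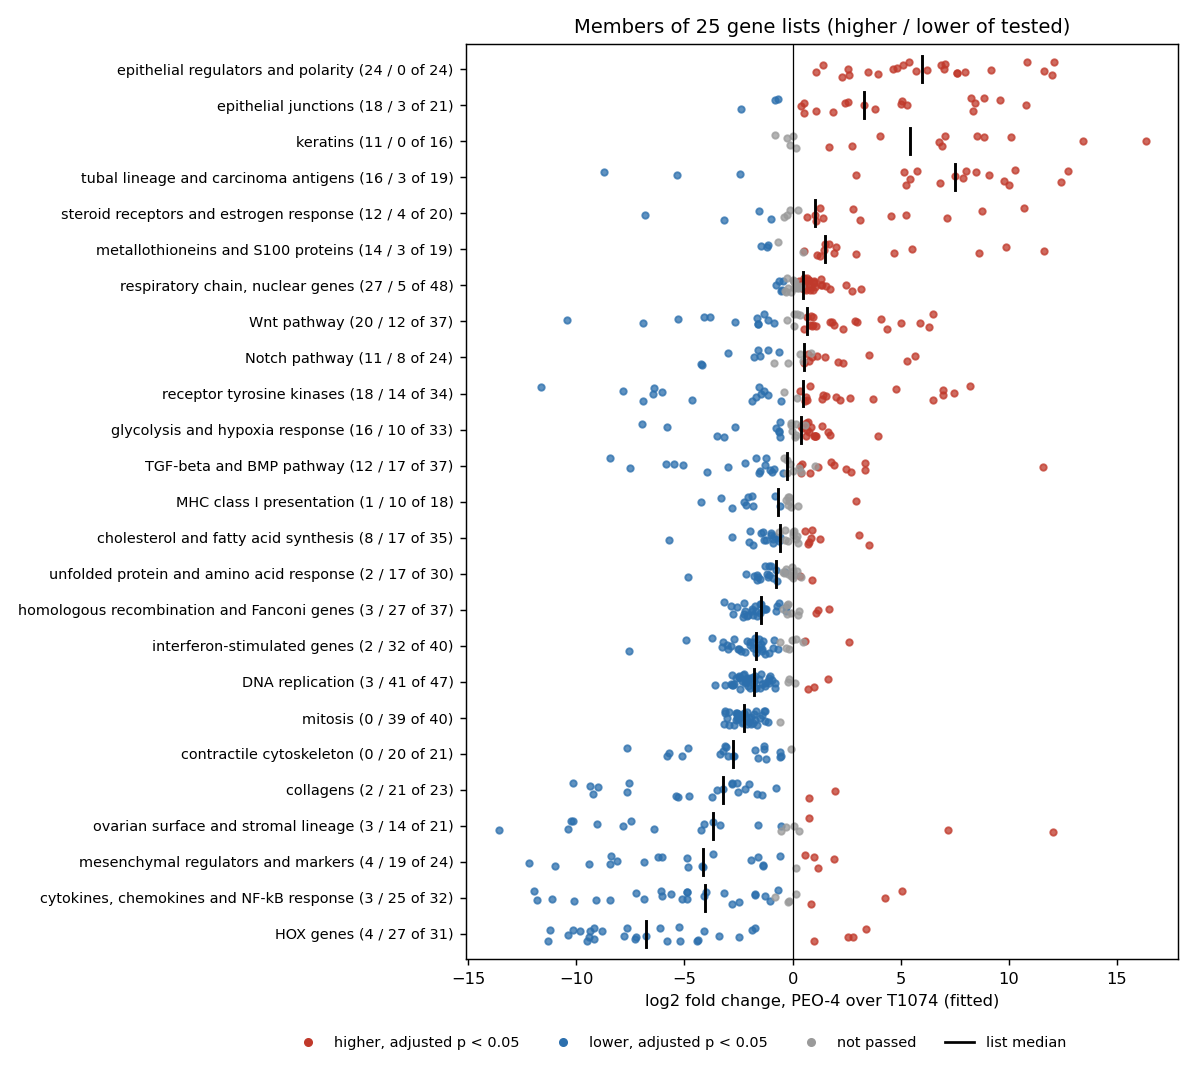
Fitted log2 fold change of PEO-4 over T1074 (x axis) for each tested member of 25 gene lists (rows), with red points higher, blue points lower and grey points not passed at an adjusted p of 0.05, and a black bar at the list median. Epithelial lists lie to the right, with medians of 3.28 to 7.49, and mitosis, collagens, mesenchymal markers, cytokines and HOX genes lie to the left, with medians of -2.23 to -6.79.

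Epithelial regulators were higher in PEO-4. In bulk RNA, fewer cells of a type and less RNA per cell cannot be told apart. All 24 members of a list of epithelial regulators and polarity genes were higher in PEO-4, each by at least 2-fold and with no overlap between the lines, with a median log2 fold change of 5.97. Over all genes tested 68.8% had no overlap, 36.8% higher and 32.0% lower in PEO-4. The list was chosen with earlier results of these data known, so these shares do not test it. GRHL2, RAB25 and OVOL2, near 0 in T1074, had enough counts to be tested through PEO-4 alone. For them the lack of overlap was nearly fixed in advance. The summed level of the list was 2206 to 2643 CPM in the PEO-4 libraries and 103.6 to 136.5 CPM in the T1074 libraries. GRHL2, a factor that holds epithelial enhancers active, measured 130.5 ± 8.18 CPM in PEO-4 and 0.0232 ± 0.018 CPM in T1074 (log2 fold change 12.07 ± 0.23, adjusted p = 1.22e-10). RAB25, a GTPase of apical recycling, measured 70.5, 67.2, 67.3 and 70.8 CPM in PEO-4, while T1074 had 2 counts in all, a ratio of 5069 (95% counting interval 1403 to 41860). ESRP1, which directs epithelial splicing, measured 344, 323, 324 and 345 CPM in PEO-4 and 0.512, 0.969, 0.704 and 0.0977 CPM in T1074 (log2 fold change 9.15 ± 0.44, adjusted p = 1.9e-08). OVOL2, a repressor of ZEB1, measured 7.55, 8.17, 6.79 and 7.36 CPM in PEO-4 and 0, 0.066, 0 and 0.0244 CPM in T1074 (log2 fold change 7.95 ± 0.43, adjusted p = 4.52e-08). SPINT1, an inhibitor of membrane serine proteases, had the highest T1074 level of the genes named in this paragraph. It measured 108 ± 6.26 CPM in PEO-4 and 6.83 ± 1.58 CPM in T1074 (log2 fold change 3.97 ± 0.17, adjusted p = 9e-09). Most of the summed level in T1074 came from members not named in this paragraph.

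Junction genes followed with 18 of 21 tested members higher and 3 lower, and a median of 3.28. CDH1, E-cadherin, measured 166, 155, 144 and 167 CPM in PEO-4 and 0.461, 0.286, 0.389 and 0.269 CPM in T1074 (log2 fold change 8.86 ± 0.18, adjusted p = 1.54e-10). All T1074 libraries lay far below all PEO-4 libraries and under 1 CPM, although their label is epithelial. EPCAM, another adhesion molecule of epithelia, measured 174 ± 4.35 CPM in PEO-4 and 0.0951 ± 0.0345 CPM in T1074 (log2 fold change 10.79 ± 0.20, adjusted p = 1.22e-10). Among the claudins, which seal tight junctions, CLDN3 and CLDN4 were higher, with 422 ± 177 CPM in PEO-4 and 1.4 ± 0.373 CPM in T1074 for CLDN4 (log2 fold change 8.27 ± 0.37, adjusted p = 1.19e-08). CLDN1 was lower, with 27.7 ± 6.2 CPM in PEO-4 and 146 ± 36.8 CPM in T1074 (log2 fold change -2.40 ± 0.21, adjusted p = 1.95e-06). Desmosome genes went both ways. The plakophilin PKP3 was higher (log2 fold change 5.01 ± 0.17) and PKP2 lower (-0.79 ± 0.19). DSP, desmoplakin, measured 48, 50.7, 49.1 and 48 CPM in PEO-4 and 57.5, 55.6, 131 and 66.4 CPM in T1074 (log2 fold change -0.66 ± 0.24, adjusted p = 0.0297), and its call was lost with any PEO-4 library left out (adjusted p = 0.0544 to 0.0631).

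Most keratins were higher in PEO-4. Of 16 tested members 11 were higher, none was lower and 5 did not pass (median 5.42), while 3 of 19 were too low to be tested. KRT8 and KRT18, the pair of simple epithelia, were among those that did not pass. KRT8 measured 534, 839, 589.5 and 532 CPM in PEO-4 and 365, 415, 633 and 1017 CPM in T1074 (log2 fold change 0.04 ± 0.30, adjusted p = 0.917). KRT18 measured 363 ± 77.1 CPM in PEO-4 and 324 ± 157 CPM in T1074 (log2 fold change 0.16 ± 0.29, adjusted p = 0.624), and without T1074 replicate 4 it was called higher (0.53, adjusted p = 0.0447). The libraries of both lines overlap for both genes. KRT19 measured 1055 ± 275 CPM in PEO-4 and 63.3 ± 38.2 CPM in T1074 (log2 fold change 4.06 ± 0.39, adjusted p = 3.76e-06). KRT7 measured 494 ± 31.2 CPM in PEO-4 and 155 ± 75.2 CPM in T1074 (log2 fold change 1.67 ± 0.30, adjusted p = 0.00044). KRT4, a keratin of moist stratified epithelia, measured 196, 439, 269 and 186 CPM in PEO-4 and was at 0 in every T1074 library, at least 2978-fold higher against a floor of 3 counts per library. Per length, on the scale of TPM over protein-coding genes, KRT19 was the most abundant keratin named here in PEO-4, with 1703 ± 505 TPM in PEO-4 and 126 ± 67.9 TPM in T1074, and KRT8 in T1074, with 754 ± 194 TPM in PEO-4 and 919 ± 406 TPM in T1074.

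**Figure D2:**
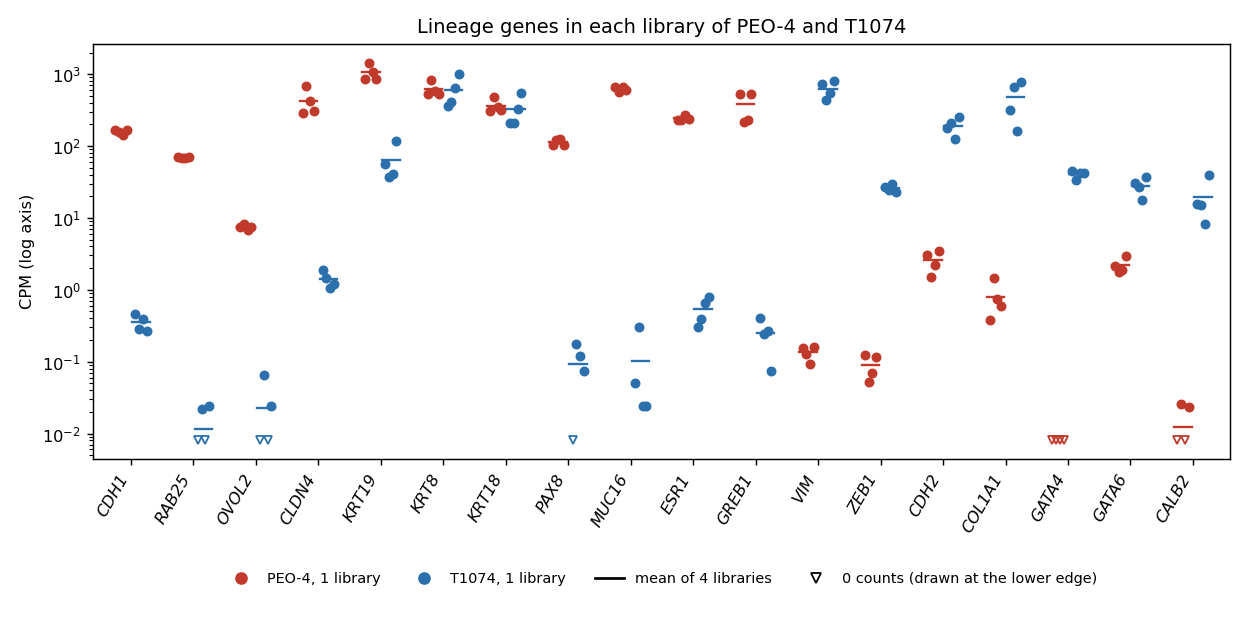
CPM (log axis) of 18 epithelial, carcinoma, hormone and mesenchymal genes in each of the 4 PEO-4 libraries (red) and the 4 T1074 libraries (blue), with a line at the mean of 4 and open triangles for 0 counts. CDH1 lies at 144 to 167 CPM in PEO-4 and 0.269 to 0.461 CPM in T1074, VIM has the reverse order, and KRT8 and KRT18 overlap.

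The letters of the E-box that ZEB and SNAI factors bind, CACCTG, were looked for on both strands in promoters from 250 bases before to 50 bases after the start. They occurred in 6 of the 13 promoters held for the regulator list (46.2%) and in 5 of 13 for the junction list (38.5%), against 18.8% of 11530 promoters of tested protein-coding genes and 20.6% of all 27305. Such a match describes letters only, not a bound site. The stretch of ELF3, an epithelial factor with a log2 fold change of 5.71 ± 0.44, is shown for the sequence such a match has, with the E-box in capitals (RefSeq, GRCh38.p14, 5′ to 3′ on the strand of the gene).
ELF3, chr1:202010430-202010509, plus strand: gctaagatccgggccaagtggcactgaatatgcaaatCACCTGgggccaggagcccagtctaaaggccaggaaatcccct

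Genes of the tubal lineage and antigens of ovarian carcinoma had a median of 7.49, with 16 of 19 tested members higher and 3 lower. Their summed level was 3014 to 3784 CPM in PEO-4 and 56.29 to 94.67 CPM in T1074. PAX8, the lineage factor of Müllerian epithelium, measured 114 ± 11.5 CPM in PEO-4 and 0.0927 ± 0.0747 CPM in T1074 (log2 fold change 10.00 ± 0.29, adjusted p = 1.04e-09). MUC16, which carries the CA125 antigen, measured 668, 572, 671 and 604 CPM in PEO-4 and 0.0512, 0.308, 0.0243 and 0.0244 CPM in T1074 (log2 fold change 12.39 ± 0.47, adjusted p = 4.58e-09). WFDC2, the serum marker HE4, measured 29.2 ± 2.28 CPM in PEO-4 and 0.247 ± 0.107 CPM in T1074 (log2 fold change 6.81 ± 0.23, adjusted p = 2.24e-09). WT1, a factor of serous carcinoma and of mesothelium, was higher by 2.96 ± 0.28 on the log2 scale, with 173 ± 18.3 CPM in PEO-4 and 22.3 ± 10.1 CPM in T1074. The 3 lower members were MECOM, MUC1 and SOX17. MECOM, a zinc finger factor often amplified in ovarian carcinoma, measured 0.0626, 0.0515, 0 and 0.0461 CPM in PEO-4 and 19.6, 18.4, 11.9 and 20.5 CPM in T1074 (log2 fold change -8.73 ± 0.39, adjusted p = 1.21e-08). MUC1, a mucin of glandular epithelia, was lower, with 0.0586 ± 0.0395 CPM in PEO-4 and 2.49 ± 0.999 CPM in T1074 (log2 fold change -5.34 ± 0.48, adjusted p = 2.28e-06). SOX17, a partner of PAX8 in tubal cells, measured 0.847 ± 0.201 CPM in PEO-4 and 4.52 ± 1.33 CPM in T1074 (log2 fold change -2.41 ± 0.29, adjusted p = 1.86e-05).

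The estrogen receptor gene ESR1 and its classic target GREB1 were among the widest differences between the lines. ESR1 measured 232, 232, 269 and 235 CPM in PEO-4 and 0.307, 0.396, 0.655 and 0.781 CPM in T1074 (log2 fold change 8.76 ± 0.25, adjusted p = 9.33e-10). GREB1 measured 537, 218, 227 and 535 CPM in PEO-4 and 0.409, 0.242, 0.267 and 0.0732 CPM in T1074 (log2 fold change 10.68 ± 0.53, adjusted p = 2.74e-08). The progesterone receptor gene PGR, another target, measured 67.8, 10.3, 13.6 and 66.9 CPM in PEO-4 and 6.45, 6.76, 4.08 and 5.35 CPM in T1074 (log2 fold change 2.81 ± 0.58, adjusted p = 0.00112). For both targets PEO-4 replicates 1 and 4 lay well above replicates 2 and 3, whereas ESR1 itself did not separate them in this way. The glucocorticoid receptor gene NR3C1 measured 369 ± 27 CPM in PEO-4 and 153 ± 27.5 CPM in T1074 (log2 fold change 1.27 ± 0.15, adjusted p = 1.85e-05). NR3C2, the mineralocorticoid receptor, was lower, with 1.64 ± 0.279 CPM in PEO-4 and 15 ± 4.54 CPM in T1074 (log2 fold change -3.18 ± 0.24, adjusted p = 5.84e-07). Of 20 tested genes of steroid receptors and estrogen response 12 were higher and 4 lower (NR3C2, XBP1, STC2 and CXCL12), and ESR2, FOXA1, CA12 and CTSD did not pass. TFF1 and TFF3, other known estrogen targets, were too low to be tested in these libraries.

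The largest fitted rises outside the lists were KLK5 to KLK8, OBP2B, ALDH3B2, LAD1 and MAB21L4. Kallikrein-related peptidases KLK5, KLK6, KLK7 and KLK8, serine proteases of one gene cluster, had 0 counts in all T1074 libraries. KLK7 measured 286, 299.5, 316 and 299.7 CPM in PEO-4, at least 3284-fold higher, and KLK5 62.9, 61.8, 71.2 and 63.5 CPM, at least 709-fold higher. OBP2B, a lipocalin, measured 51.4, 44.3, 65.5 and 51.2 CPM and was likewise at 0 in T1074, at least 581-fold higher. ALDH3B2, an aldehyde dehydrogenase, was at least 549-fold higher, with 46, 61.2, 49.8 and 43.6 CPM.

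Mesenchymal genes had the reverse order. Of 24 tested regulators and markers 19 were lower in PEO-4 and 4 higher, with a median of -4.16, and the summed level was 266.5 to 308.2 CPM in PEO-4 and 3663 to 6985 CPM in T1074. VIM, the intermediate filament vimentin, measured 0.157, 0.129, 0.0915 and 0.161 CPM in PEO-4 and 728, 442, 550.3 and 791 CPM in T1074 (log2 fold change -12.17 ± 0.32, adjusted p = 5.9e-10). ZEB1, a repressor of CDH1, measured 0.125, 0.0515, 0.0686 and 0.115 CPM in PEO-4 and 26.8, 24.4, 29.6 and 23 CPM in T1074 (log2 fold change -8.14 ± 0.23, adjusted p = 9.91e-10). CDH2, N-cadherin, measured 3.07, 1.49, 2.22 and 3.5 CPM in PEO-4 and 179, 207, 125 and 252 CPM in T1074 (log2 fold change -6.21 ± 0.32, adjusted p = 3.32e-08). ZEB2 (-9.43 ± 0.26) and SNAI2 (-6.85 ± 0.32) were lower too, while SNAI1 did not pass (0.16 ± 0.28, adjusted p = 0.63). TWIST1 was lower by less, with 4.6 ± 0.38 CPM in PEO-4 and 13.8 ± 2.79 CPM in T1074 (log2 fold change -1.58 ± 0.17, adjusted p = 8.63e-06). The higher members were MSX1, S100A4, THY1 and ENG. THY1, a surface protein of fibroblasts, measured 102, 76, 66.5 and 104 CPM in PEO-4 and 27.6, 42.8, 38 and 69.3 CPM in T1074 (log2 fold change 0.97 ± 0.26, adjusted p = 0.00545), and the lines overlap in 1 library.

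Matrix genes moved with them. Of 23 tested collagen genes 21 were lower and 2 higher, with a median of -3.22. COL1A1, a chain of fibrillar collagen, measured 0.376, 1.47, 0.755 and 0.6 CPM in PEO-4 and 318, 653, 164 and 773 CPM in T1074 (log2 fold change -9.20 ± 0.64, adjusted p = 3.13e-07). COL4A2, a chain of basement membranes, measured 0.225 ± 0.13 CPM in PEO-4 and 253 ± 95.6 CPM in T1074 (log2 fold change -10.13 ± 0.46, adjusted p = 1.35e-08). COL1A2, the partner chain of COL1A1, was low in both lines, with 0.0695 ± 0.0199 CPM in PEO-4 and 0.603 ± 0.548 CPM in T1074, and was not tested. COL18A1 was higher, with 191 ± 20.7 CPM in PEO-4 and 49.8 ± 19.9 CPM in T1074 (log2 fold change 1.94 ± 0.29, adjusted p = 0.000103), and so was COL27A1 (0.75 ± 0.28). Among 29 tested matrix glycoproteins and genes of matrix proteolysis 18 were lower and 7 higher (median -1.40). THBS2, a matricellular thrombospondin, measured 0.0313, 0.0773, 0 and 0.0231 CPM in PEO-4 and 427, 378, 134 and 899.5 CPM in T1074 (log2 fold change -13.68 ± 0.84, adjusted p = 1.22e-07). BGN, the proteoglycan biglycan, went the other way, with 270.1 ± 37.3 CPM in PEO-4 and 0.116 ± 0.0907 CPM in T1074 (log2 fold change 11.01 ± 0.32, adjusted p = 1.07e-09). TIMP1, an inhibitor of metalloproteinases, did not pass (log2 fold change 0.25 ± 0.25, adjusted p = 0.383), but without T1074 replicate 3 it was called higher (0.60, adjusted p = 0.0024).

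The contractile cytoskeleton had no member higher in PEO-4 and 20 of 21 tested lower, with a median of -2.76. TAGLN, transgelin, measured 11.3, 13.6, 16.5 and 10.7 CPM in PEO-4 and 149.9, 486, 143 and 1023 CPM in T1074 (log2 fold change -5.11 ± 0.64, adjusted p = 2.64e-05), and its T1074 libraries differed from each other several-fold. ACTA2, smooth muscle actin, measured 3.33 ± 0.485 CPM in PEO-4 and 189 ± 223 CPM in T1074 (log2 fold change -5.83 ± 0.87, adjusted p = 0.000109). MYL9, a myosin light chain, measured 21.4 ± 3.12 CPM in PEO-4 and 188 ± 115 CPM in T1074 (log2 fold change -3.14 ± 0.36, adjusted p = 1.54e-05). CAV1, caveolin, measured 38.5 ± 6.32 CPM in PEO-4 and 118 ± 30.9 CPM in T1074 (log2 fold change -1.61 ± 0.19, adjusted p = 1.68e-05). MYH11, the smooth muscle myosin heavy chain, was the member that did not pass (-0.09 ± 0.41). Integrins, the receptors for matrix, divided into 7 higher and 8 lower of 18. ITGB4, a subunit typical of epithelia, was higher, with 271 ± 37.2 CPM in PEO-4 and 21.5 ± 7.74 CPM in T1074 (log2 fold change 3.66 ± 0.26, adjusted p = 3.13e-07). ITGB6, another, measured 7.07 ± 3.59 CPM in PEO-4 and 0.0371 ± 0.0248 CPM in T1074 (log2 fold change 7.56 ± 0.62, adjusted p = 1.01e-06). ITGA5, part of the fibronectin receptor, was lower, with 8.91 ± 0.93 CPM in PEO-4 and 267 ± 91.2 CPM in T1074 (log2 fold change -4.91 ± 0.26, adjusted p = 3.95e-08). ITGB1, the common beta subunit, measured 253 ± 16.1 CPM in PEO-4 and 1366 ± 535 CPM in T1074 (log2 fold change -2.43 ± 0.27, adjusted p = 1.16e-05).

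Genes of the ovarian surface and stroma were 14 lower and 3 higher of 21 tested, with a median of -3.68. Their summed level did not separate the lines, with 556.2 to 581.2 CPM in PEO-4 and 489.1 to 759 CPM in T1074. GATA4, a factor of gonadal somatic cells, was at 0 in all PEO-4 libraries and measured 44.6, 34.1, 41.5 and 41.9 CPM in T1074, at least 524-fold lower. GATA6, its relative, measured 2.18 ± 0.528 CPM in PEO-4 and 28 ± 8.07 CPM in T1074 (log2 fold change -3.68 ± 0.26, adjusted p = 3.16e-07). CALB2, calretinin, a mesothelial protein, had 2 counts in PEO-4 and 15.7, 14.9, 8.13 and 39.3 CPM in T1074, a ratio of 1572 (95% counting interval 435 to 12980) in favour of T1074. The orphan receptor genes NR2F1 and NR2F2 did not pass (log2 fold change -0.54 ± 0.28, adjusted p = 0.0959, and log2 fold change 0.29 ± 0.23, adjusted p = 0.27). NR2F1 was called lower with scaling by library size only (-0.83), in the fit of all 12 libraries (-0.66) and without T1074 replicate 1 (-0.78) or 3 (-0.73), with adjusted p = 0.022 to 0.0304. NR2F2 was called higher without T1074 replicate 4 (0.53, adjusted p = 0.0238). EMX2OS, the antisense RNA of the Müllerian factor EMX2, was higher, with 182 ± 9.13 CPM in PEO-4 and 0.0348 ± 0.0288 CPM in T1074 (log2 fold change 12.02 ± 0.24, adjusted p = 1.54e-10), together with EMX2 (9.79 ± 0.43). The library kit keeps strand, but whether the counting used it is not stated in the sources used here.

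HOX genes, which carry positional identity along the body axis, were mostly lower, with 4 higher genes. Of 39 genes 31 were tested, 27 were lower and 4 higher. All 31 had no overlap between the lines, against 68.8% of all genes tested. For the 12 genes at 0 in PEO-4 this was fixed in advance, since they had enough counts to be tested through T1074 alone. It was nearly so for HOXA3, which had at most 2 counts in a PEO-4 library. The median was -6.79, or -4.64 with the 12 genes that were at 0 in PEO-4 set to their bound. HOXA9, a gene of the posterior part of its cluster, was at 0 in PEO-4 and measured 2.41, 2.73, 2.72 and 1.68 CPM in T1074, at least 30.9-fold lower. HOXC10 was at least 24.9-fold lower, with 2.76, 2, 1.65 and 1.27 CPM in T1074, and HOXD4 at least 106-fold lower, with 7.58, 6.67, 7.19 and 11.4 CPM. HOXD8 remained measurable in PEO-4, with 0.74 ± 0.0852 CPM in PEO-4 and 15.4 ± 3.51 CPM in T1074 (log2 fold change -4.37 ± 0.23, adjusted p = 3.43e-08). The 4 higher genes were HOXB2 (2.57 ± 0.17), HOXB3, HOXB4 (2.77 ± 0.20) and HOXC4 (0.99 ± 0.25), all of paralog groups 2 to 4. HOXB3 measured 113, 141, 184 and 110.3 CPM in PEO-4 and 15.3, 9.88, 13.8 and 13.3 CPM in T1074 (log2 fold change 3.39 ± 0.20, adjusted p = 1.05e-07). In the same cluster HOXB7 was lower, with 2.02 ± 0.288 CPM in PEO-4 and 11.3 ± 2.72 CPM in T1074 (log2 fold change -2.49 ± 0.22, adjusted p = 1.96e-06), so that the order of the lines turns between HOXB4 and HOXB5 (-1.90 ± 0.37). The summed level of the 39 genes went against their count, with 273.3 to 411.3 CPM in PEO-4 and 176 to 204.9 CPM in T1074, and HOXB2, HOXB3 and HOXB4 gave most of it in PEO-4. HAGLR, a lncRNA of the HOXD cluster, was lower as well, with 0.115 ± 0.0633 CPM in PEO-4 and 12.6 ± 2.25 CPM in T1074 (log2 fold change -6.69 ± 0.32, adjusted p = 1.96e-08).

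**Figure D3:**
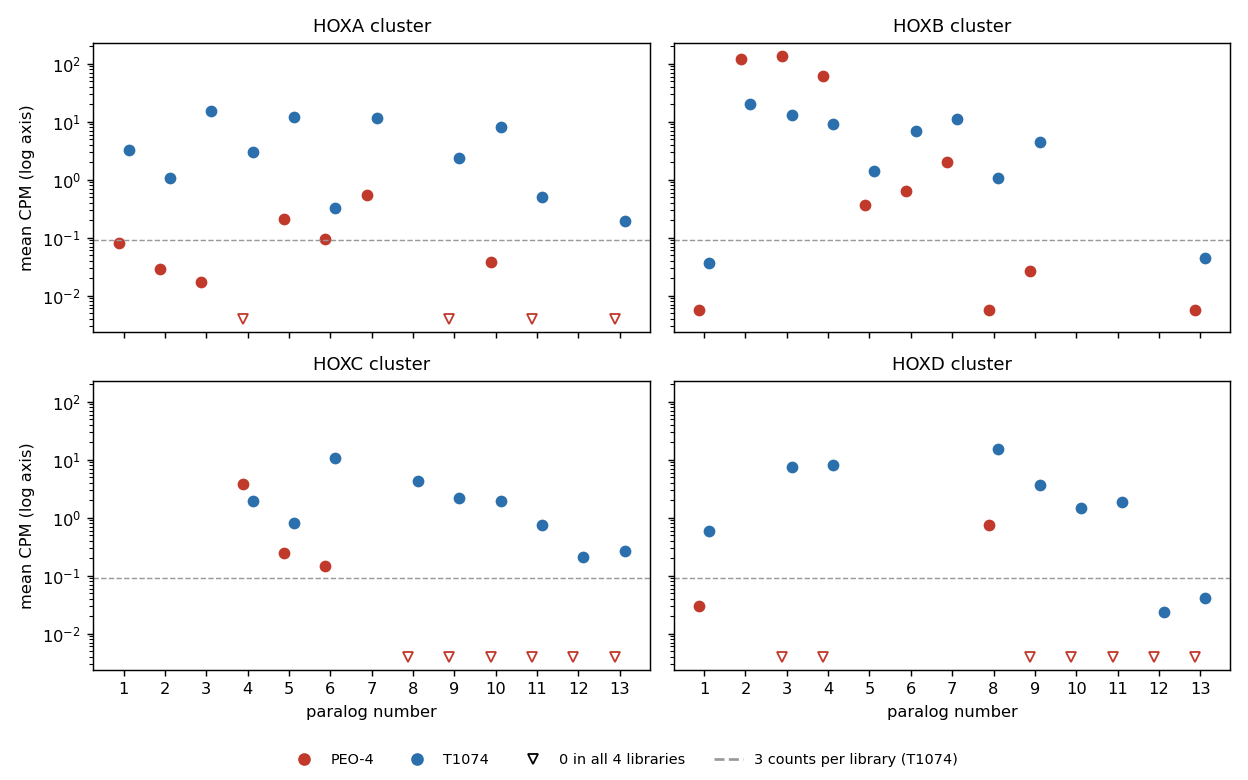
Mean CPM of 4 libraries (log axis) against paralog number for the HOXA, HOXB, HOXC and HOXD clusters, PEO-4 in red and T1074 in blue, with open triangles for genes at 0 in all 4 PEO-4 libraries and a dashed line at the mean T1074 floor of 3 counts. HOXB2, HOXB3 and HOXB4 are the PEO-4 points well above T1074, and the PEO-4 points of the HOXC and HOXD clusters past paralog 8 are all at 0.

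Growth factor receptors went both ways. Of 34 tested receptor tyrosine kinases 18 were higher and 14 lower, with a median of 0.47. With scaling by library size only the counts were 13 and 15, so the majority turns with the scaling, and it also turned without T1074 replicate 1 (13 and 15) or replicate 2 (14 and 15). ERBB3, a partner of the EGF receptor family, measured 172 ± 16.7 CPM in PEO-4 and 26.9 ± 8.4 CPM in T1074 (log2 fold change 2.67 ± 0.23, adjusted p = 1.53e-06). ERBB4 measured 455 ± 24.3 CPM in PEO-4 and 2.54 ± 1.21 CPM in T1074 (log2 fold change 7.46 ± 0.33, adjusted p = 1.17e-08). EGFR itself was lower by less, with 62.3, 61.1, 57.2 and 63.1 CPM in PEO-4 and 97.2, 77.4, 88 and 95.7 CPM in T1074 (log2 fold change -0.56 ± 0.11, adjusted p = 0.000686). FGFR2, the epithelial FGF receptor, was higher, with 39.5 ± 2.51 CPM in PEO-4 and 0.131 ± 0.063 CPM in T1074 (log2 fold change 8.22 ± 0.24, adjusted p = 1.19e-09). FGFR1 was lower, with 42.4 ± 6.02 CPM in PEO-4 and 117 ± 11.2 CPM in T1074 (log2 fold change -1.47 ± 0.13, adjusted p = 2e-06). PDGFRA, a receptor of mesenchymal cells, measured 0.045 ± 0.0239 CPM in PEO-4 and 10.9 ± 5.95 CPM in T1074 (log2 fold change -7.83 ± 0.65, adjusted p = 1.15e-06), and TEK, the angiopoietin receptor, had 1 count in PEO-4 and 16.7, 33.1, 39.4 and 31.9 CPM in T1074. MET, the HGF receptor, was higher by 0.58 ± 0.22 (adjusted p = 0.0314), and its call was lost with PEO-4 replicates 1, 2 or 4 or T1074 replicates 1, 2 or 4 left out (adjusted p = 0.0524 to 0.147) or with scaling by library size only (0.32, adjusted p = 0.203).

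Downstream of the receptors, 12 of 40 tested genes of RAS, ERK and PI3K signaling were higher and 15 lower, with a median of -0.07, or -0.04 to -0.16 with 1 library left out. Over all genes tested 38.7% were higher and 34.6% lower. NRAS did not pass (91.5 ± 8.44 CPM in PEO-4 and 93.1 ± 19.2 CPM in T1074, log2 fold change -0.02 ± 0.15, adjusted p = 0.892). PIK3CD, a catalytic subunit of PI3K, was lower, with 18 ± 0.741 CPM in PEO-4 and 69.1 ± 14.7 CPM in T1074 (log2 fold change -1.94 ± 0.16, adjusted p = 8.63e-07). DUSP4, a phosphatase induced by ERK, was the largest fall, with 1.11 ± 0.513 CPM in PEO-4 and 54.5 ± 19 CPM in T1074 (log2 fold change -5.60 ± 0.37, adjusted p = 2e-07), while DUSP6, another, did not pass (log2 fold change -0.05 ± 0.25, adjusted p = 0.866). YAP1 and WWTR1, the coactivators of the Hippo pathway, did not pass either (log2 fold change -0.03 ± 0.12, adjusted p = 0.82, and log2 fold change -0.11 ± 0.12, adjusted p = 0.429). WWTR1 was called lower with scaling by library size only (-0.37, adjusted p = 0.0347). Of 26 tested members of the YAP and TEAD response list 14 were lower and 6 higher, to be read against the same shares. Of its classic targets ANKRD1 was lower, with 0.332 ± 0.0474 CPM in PEO-4 and 11.3 ± 8.52 CPM in T1074 (log2 fold change -5.07 ± 0.62, adjusted p = 2.35e-05). CCN2 was higher, with 708 ± 186 CPM in PEO-4 and 312 ± 118 CPM in T1074 (log2 fold change 1.18 ± 0.27, adjusted p = 0.00235).

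Developmental pathways held genes that moved in either direction. Of 37 Wnt pathway genes 20 were higher and 12 lower. The ligand WNT11 was higher, with 12.1 ± 1.67 CPM in PEO-4 and 0.12 ± 0.126 CPM in T1074 (log2 fold change 6.47 ± 0.41, adjusted p = 1.63e-07). The ligand WNT5A was lower, with 2.56 ± 0.991 CPM in PEO-4 and 43.7 ± 12.9 CPM in T1074 (log2 fold change -4.08 ± 0.31, adjusted p = 5.44e-07). DKK1, a secreted inhibitor, measured 0.0313, 0.0258, 0.114 and 0 CPM in PEO-4 and 53.5, 18.1, 123 and 65.8 CPM in T1074 (log2 fold change -10.42 ± 0.80, adjusted p = 6.56e-07). AXIN2 (4.35 ± 0.16) and NKD1 (6.29 ± 0.28), feedback genes that Wnt signals induce, were higher. Of 24 Notch pathway genes 11 were higher and 8 lower, or 10 and 10 with scaling by library size only. The receptor NOTCH3 measured 83.3, 109, 95.5 and 87.5 CPM in PEO-4 and 1.54, 2.73, 0.655 and 2.47 CPM in T1074 (log2 fold change 5.64 ± 0.36, adjusted p = 1.55e-07). The ligand JAG1 was lower, with 3.06 ± 1.56 CPM in PEO-4 and 24.3 ± 9.53 CPM in T1074 (log2 fold change -2.98 ± 0.39, adjusted p = 3.91e-05), and the ligand JAG2 higher (5.29 ± 0.22). HES1, a target, did not pass (log2 fold change 0.87 ± 0.43, adjusted p = 0.0876), with PEO-4 replicate 2 far above the others at 304.3 CPM, and it passed without T1074 replicate 4 (log2 fold change 1.16, adjusted p = 0.0446) or with the replicate number as a block (0.87, adjusted p = 0.0340).

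Of 37 genes of TGF-beta and BMP signaling 12 were higher and 17 lower. BMP7, a ligand made by epithelia, measured 98.2, 170.2, 168 and 97.9 CPM in PEO-4 and 0, 0.11, 0 and 0.0244 CPM in T1074 (log2 fold change 11.57 ± 0.47, adjusted p = 7.31e-09). BMP4 was lower, with 0.538 ± 0.141 CPM in PEO-4 and 18.4 ± 3.55 CPM in T1074 (log2 fold change -5.08 ± 0.23, adjusted p = 1.49e-08). The ligand TGFB2 was lower too, with 0.499 ± 0.0891 CPM in PEO-4 and 92.4 ± 44.2 CPM in T1074 (log2 fold change -7.51 ± 0.37, adjusted p = 2.36e-08). The activin subunit INHBA measured 0.118 ± 0.0445 CPM in PEO-4 and 6.92 ± 2.8 CPM in T1074 (log2 fold change -5.87 ± 0.42, adjusted p = 3.81e-07). The receptor TGFBR2 was also lower, with 36.7 ± 2.33 CPM in PEO-4 and 104 ± 28.8 CPM in T1074 (log2 fold change -1.50 ± 0.19, adjusted p = 3.48e-05). The targets ID1 and ID3 were lower (-1.56 ± 0.43 and -3.96 ± 0.53) and ID2 and ID4 higher (2.72 ± 0.30 and 2.47 ± 0.28).

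Cell cycle genes were lower in PEO-4 as a block. Here too the share of dividing cells and the RNA per cell cannot be told apart. Of 47 tested genes of DNA replication 41 were lower and 3 higher, with a median of -1.80, and of 40 mitosis genes 39 were lower and none higher, with a median of -2.23. The summed level of the replication genes was 1427, 1815, 1654 and 1428 CPM in PEO-4 and 4275, 4704, 5353 and 4745 CPM in T1074. The summed level of the mitosis genes was 684.9, 1406, 1042 and 708.6 CPM in PEO-4 and 5426, 3842, 3062 and 4037 CPM in T1074. The lines do not overlap in either sum, and PEO-4 replicate 2 was the highest and replicates 1 and 4 the lowest within their line in both.

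The replication clamp PCNA measured 20.4, 35.1, 34.1 and 21.3 CPM in PEO-4 and 190.0, 210.1, 286 and 275 CPM in T1074 (log2 fold change -3.11 ± 0.23, adjusted p = 4.52e-07). MCM2, a subunit of the replicative helicase, measured 80.0, 106, 84 and 82.3 CPM in PEO-4 and 172, 187, 262 and 233 CPM in T1074 (log2 fold change -1.28 ± 0.16, adjusted p = 2.68e-05). RRM2, a subunit of ribonucleotide reductase, measured 28.6, 79, 63.9 and 29.5 CPM in PEO-4 and 188, 223, 254 and 298 CPM in T1074 (log2 fold change -2.26 ± 0.33, adjusted p = 8.22e-05). TYMS, thymidylate synthase, measured 9.3, 19.6, 16.6 and 8.92 CPM in PEO-4 and 129, 171, 196 and 148 CPM in T1074 (log2 fold change -3.57 ± 0.28, adjusted p = 6.54e-07). POLD3, a subunit of DNA polymerase delta, was lower by less, with 27.8 ± 2.23 CPM in PEO-4 and 59.8 ± 10.9 CPM in T1074 (log2 fold change -1.11 ± 0.14, adjusted p = 3.52e-05). The higher members were ORC3, ORC4 and POLD4, the last with 26.2 ± 2.09 CPM in PEO-4 and 8.36 ± 2.45 CPM in T1074 (log2 fold change 1.65 ± 0.21, adjusted p = 3.24e-05). Among mitosis genes TOP2A, which untangles chromosomes, measured 57, 120.1, 88.9 and 62 CPM in PEO-4 and 558, 336, 220.2 and 359 CPM in T1074 (log2 fold change -2.17 ± 0.31, adjusted p = 7.17e-05). AURKB, a kinase of the chromosomal passenger complex, measured 2.88, 9.61, 7.71 and 3.18 CPM in PEO-4 and 60.7, 49.2, 48.2 and 52.3 CPM in T1074 (log2 fold change -3.16 ± 0.36, adjusted p = 1.19e-05). FOXM1, the factor that drives late cell cycle genes, measured 17.9, 35, 24.3 and 20.6 CPM in PEO-4 and 149, 156, 148 and 114 CPM in T1074 (log2 fold change -2.54 ± 0.21, adjusted p = 1.04e-06). CCNB1, cyclin B1, measured 37.5, 80.3, 64 and 37.2 CPM in PEO-4 and 191, 103, 104 and 137 CPM in T1074 (log2 fold change -1.29 ± 0.28, adjusted p = 0.00169). BIRC5, survivin, was the member that did not pass (-0.60 ± 0.27, adjusted p = 0.0599).

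**Figure D4:**
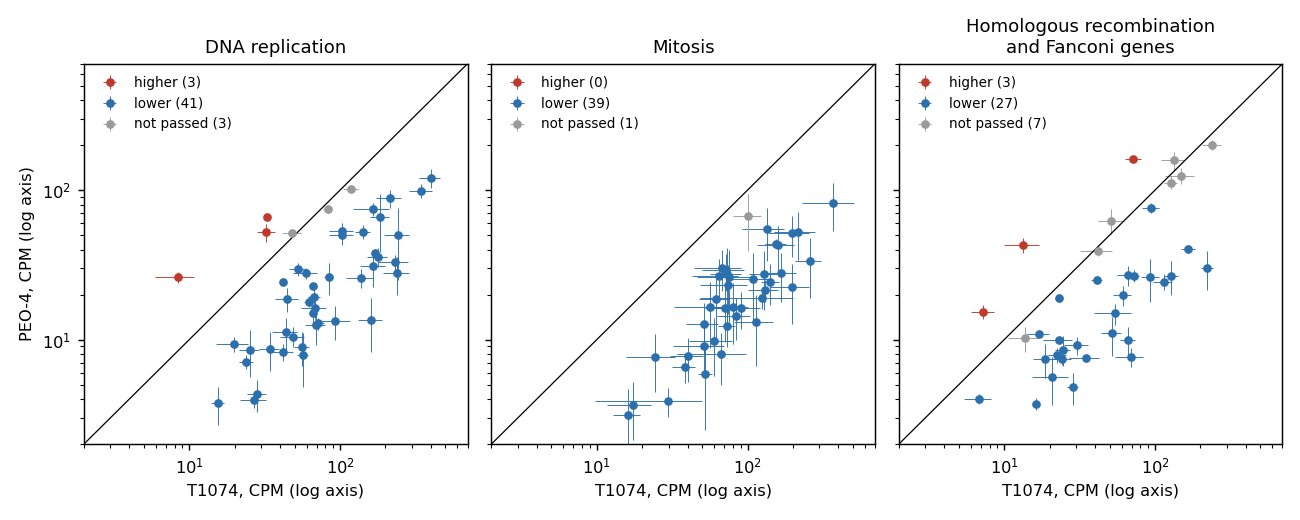
Mean CPM in PEO-4 (y) against T1074 (x), both log axes, for the tested genes of DNA replication (47), mitosis (40) and homologous recombination with Fanconi genes (37), where bars are the SD of 4 libraries and the line marks equal levels. All but a few points lie under the line, with 41, 39 and 27 genes lower and 3, 0 and 3 higher.

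Genes of the RB pathway upstream of this program did not move one way. Of 30 tested genes of G1 control 7 were higher and 19 lower, with a median of -1.14. RB1, which restrains the E2F factors, measured 17.4, 19.5, 21.1 and 19.3 CPM in PEO-4 and 117, 126, 119.6 and 143 CPM in T1074 (log2 fold change -2.71 ± 0.12, adjusted p = 9.68e-09). CCND1, cyclin D1, measured 476, 504, 470.3 and 481 CPM in PEO-4 and 53.4, 15.6, 68.3 and 43.8 CPM in T1074 (log2 fold change 3.42 ± 0.36, adjusted p = 8.17e-06), and its partner CDK6 248 ± 54.6 CPM in PEO-4 and 64.7 ± 13.6 CPM in T1074 (log2 fold change 1.94 ± 0.20, adjusted p = 5.43e-06). CCNE1, cyclin E1, was higher too, with 4.48, 5.67, 5.08 and 4.54 CPM in PEO-4 and 1.54, 1.67, 0.437 and 2.73 CPM in T1074 (log2 fold change 1.63 ± 0.41, adjusted p = 0.00385), and MYC measured 536 ± 64.4 CPM in PEO-4 and 127 ± 35.7 CPM in T1074 (log2 fold change 2.07 ± 0.20, adjusted p = 3.32e-06). CDKN2A, which encodes the inhibitor p16, was at 0 in PEO-4 and measured 214, 209.5, 222 and 349.9 CPM in T1074, at least 3221-fold lower. E2F1 was lower (-3.35 ± 0.33), and E2F5 higher (2.91 ± 0.16). CDKN1A, the p21 inhibitor, measured 4.92, 16, 8.62 and 5.03 CPM in PEO-4 and 67.5, 101, 199.8 and 111 CPM in T1074 (log2 fold change -3.79 ± 0.45, adjusted p = 1.69e-05). Of 27 tested p53 target genes 12 were lower and 8 higher, a median of -0.26, with MDM2 among the lower (104 ± 6.35 CPM in PEO-4 and 163 ± 29.8 CPM in T1074, log2 fold change -0.65 ± 0.14, adjusted p = 0.00138) and BTG2 the largest rise (93.3 ± 48.7 CPM in PEO-4 and 18.1 ± 5.19 CPM in T1074, log2 fold change 2.36 ± 0.34, adjusted p = 8.55e-05).

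Repair genes of homologous recombination and the Fanconi pathway were 27 lower and 3 higher of 37 tested, with a median of -1.44. BRCA2, a mediator of recombination, measured 7.77, 9.15, 6.59 and 7.08 CPM in PEO-4 and 85.4, 65.6, 74.3 and 51.1 CPM in T1074 (log2 fold change -3.17 ± 0.18, adjusted p = 6.69e-08). PALB2, which joins BRCA1 to BRCA2, was lower by less, with 25 ± 1.02 CPM in PEO-4 and 41.3 ± 3.41 CPM in T1074 (log2 fold change -0.73 ± 0.10, adjusted p = 7.66e-05), and FANCD2 measured 26.2 ± 8.22 CPM in PEO-4 and 92.8 ± 12.6 CPM in T1074 (log2 fold change -1.82 ± 0.21, adjusted p = 1.45e-05). PARP1, the sensor of strand breaks, measured 40.4 ± 1.19 CPM in PEO-4 and 166 ± 18.2 CPM in T1074 (log2 fold change -2.04 ± 0.11, adjusted p = 6.37e-08). FANCF was the largest rise, with 42.8 ± 5.09 CPM in PEO-4 and 13.4 ± 3.49 CPM in T1074 (log2 fold change 1.67 ± 0.19, adjusted p = 1.17e-05), followed by NBN (1.16 ± 0.11) and RAD52 (1.08 ± 0.16). ATM, RAD50 and MRE11 did not pass (-0.25 ± 0.16, 0.28 ± 0.17 and -0.08 ± 0.18).

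Replication-dependent histone genes, whose RNAs peak in S phase and lack poly(A) tails, went both ways. Of 49 tested members 17 were lower, 6 higher and 26 did not pass, with a median of -0.37. Between the lines 11 had no overlap, a smaller share than the 68.8% of all genes tested. The count moved with single libraries, since 36 members passed without T1074 replicate 3 (median -0.65) and 28 without PEO-4 replicate 2 (-0.63). H1-4 was lower, with 209 ± 19.7 CPM in PEO-4 and 350.4 ± 95.9 CPM in T1074 (log2 fold change -0.74 ± 0.19, adjusted p = 0.00501), H2BC12 did not pass (log2 fold change -0.22 ± 0.22, adjusted p = 0.384), and H3C6 was the largest rise, with 22.4 ± 1.41 CPM in PEO-4 and 7.69 ± 3.08 CPM in T1074 (log2 fold change 1.56 ± 0.24, adjusted p = 0.00014). Histone genes are near copies whose shared reads RSEM divides by estimate, so single members are uncertain. H4C9 had 3 counts in all PEO-4 libraries together and measured 27.5, 34.7, 27.9 and 49.6 CPM in T1074.

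Promoters of replication and mitosis genes are known to carry different elements, an E2F site and a CHR. The letters TTTCCCGC or TTTGGCGC for E2F were found on either strand in 16 of 40 replication promoters, in 2 of 33 mitosis promoters (6.1%) and in 3 of 33 promoters of the repair list (9.1%), against 3.6% of promoters of tested protein-coding genes and 2.3% of all. The CHR letters TTTGAA were found in 19 of 33 mitosis promoters (57.6%), in 1 of 40 replication promoters (2.5%) and in 5 of 33 repair promoters (15.2%), against 9.8% and 15.4%. Neither element contains the other. The stretches below show PCNA and MCM7 with the E2F letters, then CCNB2, PLK1 and TOP2A with the CHR letters, in capitals (RefSeq, GRCh38.p14, 5′ to 3′ on the strand of the gene). Log2 fold changes of these genes were -3.11, -1.72, -1.67, -1.52 and -2.17.
PCNA, chr20:5126638-5126717, minus strand: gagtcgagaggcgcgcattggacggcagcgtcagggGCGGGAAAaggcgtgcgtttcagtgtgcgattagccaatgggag
MCM7, chr7:100101541-100101620, minus strand: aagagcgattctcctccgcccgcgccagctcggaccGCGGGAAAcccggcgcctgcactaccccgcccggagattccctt
CCNB2, chr15:59105080-59105159, plus strand: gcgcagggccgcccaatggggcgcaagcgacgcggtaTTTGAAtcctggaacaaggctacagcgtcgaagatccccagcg
PLK1, chr16:23678823-23678902, plus strand: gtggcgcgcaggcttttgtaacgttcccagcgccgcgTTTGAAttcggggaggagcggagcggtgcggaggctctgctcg
TOP2A, chr17:40418027-40418106, minus strand: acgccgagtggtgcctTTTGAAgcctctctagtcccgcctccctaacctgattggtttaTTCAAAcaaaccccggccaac

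Interferon-stimulated genes were lower in PEO-4, and a single T1074 library weighed on the size of the difference. Of 40 tested members 32 were lower and 2 higher, with a median of -1.67. Between the lines 17 had no overlap, a smaller share than the 68.8% of all genes tested. The summed level was 2125, 3568, 2700 and 2132 CPM in PEO-4 and 2382, 5001, 12720 and 5775 CPM in T1074, so that T1074 replicate 3 stood far above the others and replicate 1 lay within the range of PEO-4. Without T1074 replicate 3, 27 members were lower and 4 higher, with a median of -1.08. ISG15, a ubiquitin-like modifier, measured 58.3, 152, 70.7 and 58.8 CPM in PEO-4 and 59.2, 163, 911 and 198 CPM in T1074 (log2 fold change -1.97 ± 0.70, adjusted p = 0.0248), and without T1074 replicate 3 it did not pass (log2 fold change -0.74, adjusted p = 0.143), nor without PEO-4 replicates 1, 3 or 4 (adjusted p = 0.0598 to 0.0633). It did not pass with the replicate number as a block either (log2 fold change -1.33, adjusted p = 0.0663). MX1, an antiviral GTPase, measured 174, 413, 235 and 169.9 CPM in PEO-4 and 236, 501, 1042 and 645 CPM in T1074 (log2 fold change -1.29 ± 0.42, adjusted p = 0.0157). MX2, its paralog, measured 0.745 ± 0.518 CPM in PEO-4 and 139 ± 123 CPM in T1074 (log2 fold change -7.54 ± 0.77, adjusted p = 5.83e-06). IFI27 was higher in PEO-4, with 281 ± 92.8 CPM in PEO-4 and 46.5 ± 42.5 CPM in T1074 (log2 fold change 2.59 ± 0.66, adjusted p = 0.00441), and IFITM2 was higher by 0.58 ± 0.23.

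The interferon response element GAAA, any 2 bases and GAAA again, was found on either strand in 19 of 31 promoters of this list (61.3%) and in 7 of 14 of the MHC class I list, against 2.9% of promoters of tested protein-coding genes and 3.6% of all 27305. IFI27, a member that was higher in PEO-4, holds it as well. Stretches of ISG15, IFIT3, BST2 and IFI27 are shown with the matches in capitals, overlapping matches joined (RefSeq, GRCh38.p14, 5′ to 3′ on the strand of the gene). The log2 fold changes were -1.97, -2.52, -2.09 and 2.59.
ISG15, chr1:1013352-1013431, plus strand: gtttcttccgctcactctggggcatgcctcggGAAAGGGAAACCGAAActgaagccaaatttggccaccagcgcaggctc
IFIT3, chr10:89327823-89327902, plus strand: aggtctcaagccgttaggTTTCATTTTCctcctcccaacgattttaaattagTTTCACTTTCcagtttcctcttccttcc
BST2, chr19:17405713-17405792, minus strand: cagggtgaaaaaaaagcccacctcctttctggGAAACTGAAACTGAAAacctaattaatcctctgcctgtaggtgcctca
IFI27, chr14:94110599-94110678, plus strand: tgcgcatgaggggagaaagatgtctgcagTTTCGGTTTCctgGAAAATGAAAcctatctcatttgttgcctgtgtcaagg

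Of 18 tested genes of MHC class I presentation 10 were lower and 1 higher, with a median of -0.69, or -0.38 without T1074 replicate 3. B2M, the light chain of class I molecules, measured 274, 382, 413 and 285 CPM in PEO-4 and 1622, 1908, 2771 and 3247 CPM in T1074 (log2 fold change -2.82 ± 0.26, adjusted p = 2.6e-06). TAP1, the peptide transporter, measured 53.3 ± 7.92 CPM in PEO-4 and 221 ± 73.1 CPM in T1074 (log2 fold change -2.05 ± 0.23, adjusted p = 1.27e-05). HLA-B, a heavy chain, was lower, with 187 ± 18.2 CPM in PEO-4 and 839.5 ± 528 CPM in T1074 (log2 fold change -2.17 ± 0.37, adjusted p = 0.000299). HLA genes differ between people and share reads, so these levels are uncertain. ERAP2, a peptidase that trims class I peptides, was higher, with 74.8 ± 3.23 CPM in PEO-4 and 9.86 ± 7.74 CPM in T1074 (log2 fold change 2.92 ± 0.42, adjusted p = 8.02e-05). Of 13 tested class II genes 8 were higher and 3 lower. CIITA, the master regulator of class II, measured 14.1 ± 3 CPM in PEO-4 and 0.831 ± 0.267 CPM in T1074 (log2 fold change 4.05 ± 0.26, adjusted p = 1.73e-07), HLA-DRA was at 0 in T1074 and at 9.77, 6.8, 8.1 and 9.68 CPM in PEO-4, and CD74, the invariant chain, did not pass (log2 fold change 0.19 ± 0.32, adjusted p = 0.609).

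Cytokines, chemokines and genes of the NF-kB response were 25 lower and 3 higher of 32 tested, with a median of -4.04, and their summed level was 504 to 610.7 CPM in PEO-4 and 1031 to 1987 CPM in T1074. IL6 measured 0.0626, 0.129, 0 and 0.0922 CPM in PEO-4 and 60.9, 48.6, 98.1 and 117 CPM in T1074 (log2 fold change -10.12 ± 0.49, adjusted p = 2.26e-08), and the neutrophil chemokine CXCL8 0.376, 0.902, 2.13 and 0.553 CPM in PEO-4 and 142, 26.1, 153 and 149.7 CPM in T1074 (log2 fold change -6.86 ± 0.68, adjusted p = 4.73e-06). CXCL6 was at 0 in PEO-4 and measured 20.3, 3.28, 11.2 and 16.7 CPM in T1074, at least 167-fold lower. IL18, a cytokine that epithelia hold ready, was higher, with 12.8 ± 2.97 CPM in PEO-4 and 0.635 ± 0.508 CPM in T1074 (log2 fold change 4.26 ± 0.42, adjusted p = 4.25e-06), as were TNFAIP2, with 187 ± 11.8 CPM in PEO-4 and 5.52 ± 3.65 CPM in T1074 (log2 fold change 5.06 ± 0.43, adjusted p = 1.39e-06), and IL15 (0.84 ± 0.22).

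Metabolic lists moved by less. Of 33 genes of glycolysis and the hypoxia response 16 were higher and 10 lower, with a median of 0.40. With scaling by library size only they were 10 and 10 (median 0.14), and without T1074 replicate 2 they were 12 and 10 (0.26). SLC2A1, the glucose transporter GLUT1, measured 168 ± 22.1 CPM in PEO-4 and 54 ± 10.6 CPM in T1074 (log2 fold change 1.63 ± 0.16, adjusted p = 3.66e-06). HK2, hexokinase, measured 129 ± 4.27 CPM in PEO-4 and 60.7 ± 12.6 CPM in T1074 (log2 fold change 1.09 ± 0.15, adjusted p = 7.1e-05). LDHA, lactate dehydrogenase, measured 485 ± 121 CPM in PEO-4 and 243 ± 60.8 CPM in T1074 (log2 fold change 1.00 ± 0.22, adjusted p = 0.00166). ALDOC, the aldolase of brain, was the largest fall, with 0.0551 ± 0.0654 CPM in PEO-4 and 7.36 ± 1.49 CPM in T1074 (log2 fold change -6.94 ± 0.52, adjusted p = 5.43e-07). Nuclear genes of the respiratory chain were 27 higher and 5 lower of 48 tested, with a median of 0.47, of which 9 differed by at least 2-fold. NDUFB9, a complex I subunit on chromosome 8, was the largest rise, with 359 ± 9.95 CPM in PEO-4 and 40.3 ± 3.75 CPM in T1074 (log2 fold change 3.15 ± 0.12, adjusted p = 4.21e-09), ATP5F1B, a subunit of ATP synthase, measured 673 ± 13.9 CPM in PEO-4 and 415 ± 25.3 CPM in T1074 (log2 fold change 0.70 ± 0.12, adjusted p = 0.000243), and SDHA, a complex II subunit, was lower, with 96.2 ± 10.8 CPM in PEO-4 and 166 ± 29.9 CPM in T1074 (log2 fold change -0.79 ± 0.15, adjusted p = 0.000518).

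Genes of lipid synthesis went both ways. Of 35 genes of cholesterol and fatty acid synthesis 17 were lower and 8 higher, with a median of -0.56. Without T1074 replicate 4 they were 14 and 12, with a median of -0.28. FASN, fatty acid synthase, measured 902, 1008, 811 and 941 CPM in PEO-4 and 96.7, 58.2, 127 and 150.5 CPM in T1074 (log2 fold change 3.08 ± 0.27, adjusted p = 1.57e-06). TM7SF2, a sterol reductase, measured 121 ± 11 CPM in PEO-4 and 10.5 ± 2.64 CPM in T1074 (log2 fold change 3.53 ± 0.19, adjusted p = 5.54e-08). SREBF2, the factor that drives cholesterol genes, was lower (-2.01 ± 0.20), and SCD, a fatty acid desaturase, did not pass (log2 fold change -0.65 ± 0.50, adjusted p = 0.26).

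Stress and redox genes were mixed. Of 28 tested NRF2 targets and redox enzymes 8 were higher and 10 lower. NQO1 did not pass (log2 fold change -0.26 ± 0.24, adjusted p = 0.35). HMOX1, heme oxygenase, was lower, with 0.595 ± 0.266 CPM in PEO-4 and 18.9 ± 2.46 CPM in T1074 (log2 fold change -4.97 ± 0.28, adjusted p = 6.63e-08). SLC7A11, the cystine carrier, was lower, with 55.9 ± 6.05 CPM in PEO-4 and 208 ± 22.8 CPM in T1074 (log2 fold change -1.90 ± 0.13, adjusted p = 2.58e-07). GPX3, a secreted peroxidase, was higher, with 55.3 ± 2.55 CPM in PEO-4 and 0.968 ± 0.264 CPM in T1074 (log2 fold change 5.80 ± 0.18, adjusted p = 1.67e-09). Of 30 genes of the unfolded protein and amino acid responses 17 were lower and 2 higher, with a median of -0.75, and HSPA5, ASNS, PHGDH and DDIT3 did not pass (0.22 ± 0.33, 0.02 ± 0.16, 0.07 ± 0.20 and 0.01 ± 0.26). Without T1074 replicate 4 HSPA5 was called higher (0.71, adjusted p = 0.00801). Metallothioneins and S100 proteins were 14 higher and 3 lower of 19 tested, with a median of 1.52. S100A14, an S100 protein of epithelia, had 2 counts in T1074 and 40.6, 66.2, 67 and 41.1 CPM in PEO-4, a ratio of 3998 (95% counting interval 1106 to 33020), and MT2A did not pass (log2 fold change 0.46 ± 0.26, adjusted p = 0.125).

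Genes of platinum handling and drug transport were 9 higher and 14 lower of 29 tested, with a median of -0.28, or -0.48 without T1074 replicate 1. ATP7B, a copper pump that also exports platinum, was higher, with 10.4, 10.7, 9.04 and 10.3 CPM in PEO-4 and 1.89, 3.98, 1.43 and 4.03 CPM in T1074 (log2 fold change 1.82 ± 0.31, adjusted p = 0.000275), and SLC31A1, the copper importer, lower (-1.56 ± 0.12). GSTP1, a glutathione transferase, measured 559 ± 24 CPM in PEO-4 and 153 ± 41.4 CPM in T1074 (log2 fold change 1.87 ± 0.18, adjusted p = 4e-06). The efflux pumps ABCB1 and ABCG2 were lower. ABCB1 measured 0.0538 ± 0.0408 CPM in PEO-4 and 5.67 ± 2.08 CPM in T1074 (log2 fold change -6.57 ± 0.48, adjusted p = 4.13e-07). ABCG2 measured 0.0829 ± 0.0289 CPM in PEO-4 and 10.9 ± 1.21 CPM in T1074 (log2 fold change -6.99 ± 0.27, adjusted p = 4.42e-09). ERCC1, of nucleotide excision repair, was lower (log2 fold change -0.50 ± 0.11, adjusted p = 0.00178).

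Of 22 tested imprinted genes, which are read from 1 parental copy, 10 were higher and 9 lower, or 10 and 10 with scaling by library size only or without T1074 replicate 1. MEST measured 681 ± 149.9 CPM in PEO-4 and 73 ± 52.1 CPM in T1074 (log2 fold change 3.22 ± 0.43, adjusted p = 4.75e-05). PEG10 measured 169.6 ± 17.2 CPM in PEO-4 and 71 ± 22.9 CPM in T1074 (log2 fold change 1.25 ± 0.21, adjusted p = 0.000246). MEG3 and MEG8, lncRNAs of the DLK1 domain, had 1 count each in PEO-4 and 37.7, 21.6, 23.6 and 43 CPM and 23.8, 12.5, 7.84 and 28.7 CPM in T1074. Cancer-testis antigens were mostly at low or no counts in both lines. Of 33 matched genes 28 were too low to be tested, MAGEA4 and CT45A1 were at 0 in all 8 libraries, and SSX1 was at 0 in T1074 and at 1.28, 3.92, 1.81 and 1.04 CPM in PEO-4. The oncofetal RNA-binding genes went opposite ways, with IGF2BP3 higher (21.2 ± 3.52 CPM in PEO-4 and 5.15 ± 1 CPM in T1074, log2 fold change 2.04 ± 0.18, adjusted p = 2.03e-06) and IGF2BP1 lower (0.101 ± 0.0474 CPM in PEO-4 and 16.8 ± 3.59 CPM in T1074, log2 fold change -7.33 ± 0.30, adjusted p = 8.03e-09).

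Among lncRNA genes the largest rises beside EMX2OS were CERNA2, UCA1, MIR205HG and LINC02975. UCA1, known from urothelial carcinoma, measured 47.4, 65.7, 56.2 and 44.3 CPM in PEO-4 and had 1 count in T1074, a ratio of 7870 (95% counting interval 1412 to 310900). CERNA2 was at 0 in T1074 and at 28.3, 32.7, 36 and 30.2 CPM in PEO-4, at least 348-fold higher. The largest falls beside MEG3 and MEG8 were CDKN2B-AS1, CDH13-AS2 and HAGLR, and CDH13-AS2 was at 0 in PEO-4 together with CDH13, the T-cadherin gene it is named for, which measured 48, 40.7, 70.2 and 52.4 CPM in T1074.

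Per length, the protein-coding RNA of the lines differed most in ribosomal, cytoskeletal and class I genes. On the scale of TPM over protein-coding genes, the 10 largest gains included EEF1A1, a translation elongation factor, with 22730 ± 2074 TPM in PEO-4 and 7251 ± 1571 TPM in T1074, and RPS29, a ribosomal protein gene, with 14130 ± 1380 TPM in PEO-4 and 3864 ± 1193 TPM in T1074. Of the other 8, 7 were ribosomal protein genes and the last was ACTG1, gamma actin, with 8080 ± 576 TPM in PEO-4 and 2191 ± 590.4 TPM in T1074. Its sister gene ACTB, beta actin, was among the 10 largest losses, with 929.8 ± 96.8 TPM in PEO-4 and 4399 ± 1257 TPM in T1074. B2M, with 886 ± 176 TPM in PEO-4 and 7827 ± 2309 TPM in T1074, and TMSB4X, an actin-binding thymosin, with 348 ± 115 TPM in PEO-4 and 4649 ± 1615 TPM in T1074, were among them too. The 10 losses also held LGALS1, a galectin, with 115 ± 58.2 TPM in PEO-4 and 2109 ± 1156 TPM in T1074, SPARC, with 62.8 ± 6.79 TPM in PEO-4 and 1612 ± 1056 TPM in T1074, and TUBA1B, with 581 ± 127 TPM in PEO-4 and 2281 ± 328 TPM in T1074.

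Of the marker lists of other cell types, those of leukocytes and endothelium had the lower sums in PEO-4. Of 15 leukocyte genes 6 were tested, 3 higher and 2 lower. The counts were 1 and 2 without T1074 replicate 2 and 0 and 2 at 50 counts or more in 4 libraries. The list had a summed level of 4.69 to 6.029 CPM in PEO-4 and 9.488 to 24.93 CPM in T1074, and PTPRC, the common leukocyte antigen, was at 0 in PEO-4 and at 0, 0.11, 0.291 and 0.0488 CPM in T1074. Of 10 endothelial genes 6 were tested, 2 higher and 3 lower, with a summed level of 4.941 to 5.833 CPM and 26.36 to 49.92 CPM, to which TEK gave most in T1074, while PECAM1 was at 0.0767 ± 0.0504 and 0.252 ± 0.245 CPM in PEO-4 and T1074. Of 10 fibroblast and muscle genes 6 were tested, 1 higher and 4 lower, with overlapping sums of 68.1 to 106 CPM and 66.09 to 141.3 CPM, to which THY1 gave most in PEO-4. FAP was at 0 in PEO-4 and at 4.61, 3.94, 2.52 and 5.3 CPM in T1074. Of 8 genes of ciliated and glandular epithelium 6 were tested, 5 higher and none lower, with a sum of 78.44 to 97.48 CPM in PEO-4 and 4.297 to 6.689 CPM in T1074, most of the PEO-4 sum from CAPS, a calcium-binding protein (log2 fold change 5.07 ± 0.14, adjusted p = 6.91e-10), whereas FOXJ1, the master factor of cilia, was at 0.736 ± 0.144 and 0.116 ± 0.12 CPM in PEO-4 and T1074. What part such cells have in the differences was not tested.

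Differences also ran along the chromosomes. Over 14458 tested protein-coding genes the median log2 fold change was -0.06, with 35.6% of genes higher and 39.3% lower. Chromosome 8 had a median of 0.82 over 503 genes, of which 59.8% were higher, followed by chromosomes 19 (0.36), 14 (0.33) and 11 (0.29). Chromosome 22 had a median of -0.96 over 343 genes, of which 66.2% were lower, followed by chromosomes 9 (-0.69) and 13 (-0.67). These are levels of RNA, and DNA copy number was not measured here.

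In windows of 31 neighbouring genes the highest median, 5.97, lay at chr5:140670794-141203779 from DND1 to PCDHB11, with 27 genes higher and 1 lower. These are clustered protocadherins, adhesion genes whose transcripts share constant exons, so their single counts are uncertain, and the median was 4.05 in windows of 51 genes. Both top windows of chromosome 8 lay on its long arm, chr8:103140713-119245673 from BAALC to MAL2 (median 2.33, 28 higher and 2 lower) and chr8:139727725-143599541 from TRAPPC9 to EEF1D (median 2.29, 30 higher and 1 lower). The zinc finger genes at chr19:19785839-23945159, from ZNF506 to ZNF726, had a median of 2.15 (25 higher and 1 lower), or 1.07 in windows of 51 genes. The window at chr11:67583742-71252577, from GSTP1 to SHANK2, which holds CCND1, had a median of 1.87 (25 higher and 1 lower), or 0.86 in windows of 51 genes.

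The lowest window, at chr7:22419444-27185232 from STEAP1B to HOXA11, had a median of -2.49 with 1 gene higher and 24 lower. It takes in HOXA genes described above, and chromosome 7 as a whole had a median of -0.06. This window was followed by chr4:112818032-125492932 from ANK2 to FAT4 (-2.15), chr16:57999546-67159909 from USB1 to TRADD (-2.02) and chr9:6532467-22455740 from GLDC to DMRTA1 (-1.95). In windows of 51 genes the medians of these 4 were -1.58, -1.39, -1.21 and -1.65. At chr9:21802636-22455740 the neighbours MTAP, CDKN2A, CDKN2B and DMRTA1 formed a run of genes with no count in any PEO-4 library. The run is part of a longer stretch. Between FOCAD (7.04 CPM in PEO-4 and 46.5 CPM in T1074) and TUSC1 (17.3 and 29.9 CPM) all 24 protein-coding genes were at 0 in PEO-4, and 74 of 75 genes of any type, while T1074 had 74353 counts over 38 of them. The one exception was RN7SL151P, a near copy of the abundant 7SL RNA gene, with 17 counts. Most of the 24 protein-coding genes, largely interferon genes, were at 0 in T1074 too or had at most 3 counts there in all. Those with enough counts to be tested were HACD4, KLHL9, MTAP, CDKN2A, CDKN2B and DMRTA1. Counts cannot tell a lost from a silent gene.

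**Figure D5:**
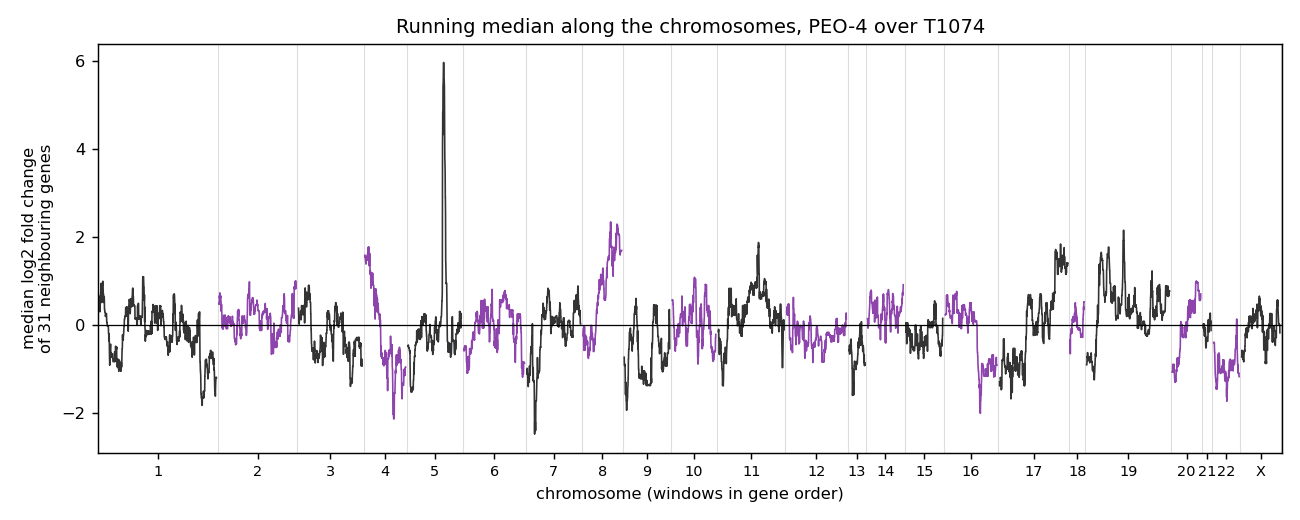
Median log2 fold change of PEO-4 over T1074 (y) in sliding windows of 31 neighbouring tested protein-coding genes, in gene order along chromosomes 1 to 22 and X (x), with the colour changing between chromosomes. The long arm of chromosome 8 rises to 2.33 and the protocadherin cluster of chromosome 5 to 5.97. A window on the short arm of chromosome 7 that takes in HOXA genes falls to -2.49.

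Other runs of at least 3 neighbouring genes that were at 3 counts or less in each library of PEO-4 were HOXD11 to HOXD9, HOXA2 to HOXA4 and ABCA8, ABCA9 and ABCA6 on chromosome 17, where ABCA8 measured 14.5, 20.4, 7.75 and 28.1 CPM in T1074. In T1074 the runs were KLK5 to KLK8 and TNNT2, LAD1 and TNNI1 on chromosome 1, where LAD1, a protein of basement membrane anchoring, measured 42, 41.4, 34.5 and 41.6 CPM in PEO-4.

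Abundant RNAs of RNA polymerase III took different shares of the libraries. The 7SK RNA, which holds a transcription elongation factor inactive, took 6.86% ± 0.633 of the counts in PEO-4 and 2.65% ± 0.565 in T1074 (n = 4 each, two-sided exact permutation p = 0.0286, the smallest that 4 against 4 can give). RPPH1 and RMRP, the RNAs of RNase P and RNase MRP, took 6.35% ± 0.908 and 2.12% ± 0.464 together (n = 4 each, exact permutation p = 0.0286). The share of 7SL RNA, 13.7% ± 0.598 against 10.2% ± 4.03, did not pass (n = 4 each, exact permutation p = 0.143), nor did that of protein-coding genes, 66.5% ± 3.77 against 74.2% ± 7.11 (n = 4 each, exact permutation p = 0.114). The share of rRNA, which moved with T1074 replicate 1, was 3.65% ± 2.35 against 8.97% ± 8.31 (n = 4 each, exact permutation p = 0.2).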

How the data were processed

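RNA of 4 libraries each of PEO-4 and T1074 was analysed from the deposited isoform tables. Per the labels and the submitters' processing notes, the authors used bcl2fastq 2.20.0.422, Trimmomatic 0.39, STAR 2.7.3a and RSEM 1.3.1 with hg38 and Gencode 39, and deposited for each isoform an expected count and a TPM value. The labels give the molecule as protein, while their protocols describe RNA. RSEM divides reads shared by near-identical genes (histones, HLA, protocadherins, ribosomal protein genes) by estimate.

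Here expected counts were summed by gene and rounded. Groups came from the sample titles. Genes were filtered with filterByExpr, scaled with TMM and tested with edgeR 4.0.16 (quasi-likelihood F-test, R 4.3.3) between the lines, with Benjamini-Hochberg adjustment over 18644 genes. The standard error was the fold change divided by the square root of F. Alternatives used DESeq2 1.42.0, other scalings, filters, thresholds and samples. TPM values were rescaled over protein-coding genes where levels of different genes are compared. Shares of counts were compared by exact permutation tests (SciPy 1.17.1, Python 3.11.15). Gene names and positions came from GENCODE 44 on GRCh38, which matched 61369 of 61533 identifiers. Depth was 19780815 to 47148142 counts per library. Folds against a line at 0 used a floor of 3 counts per library, and ratios of 1 to 3 counts an exact 95% interval. Both cover counting error only. The scripts were tested on simulated data with known changes.

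Named genes were the marker genes chosen for each list, the member of each list with the largest called rise and fall at 5 CPM or more, the 10 largest TPM differences each way, the lncRNA and unlisted genes with the largest changes, and genes of runs along chromosomes. Other genes were named as members of a list to account for its counts, after their values were seen. The members and lists were chosen with earlier results of these data known. Genes of X inactivation and chromosome Y were left out, and some further named genes are not reported here. Replicate numbers did not pair the libraries, since deviations from the line means correlated at 0.088, 0.018, -0.024 and -0.110 between libraries of the same number.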

Additional observations from a re-analysis of the deposited data

Results flagged for a closer look

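Of 396 groups of 4 libraries, 33 (8.3%) held 1 library far from the other 3 by Dixon's test. Chance gives about 1 in 20 for independent libraries. PEO-4 replicates 1 and 4 lay close together in protein-coding counts, so that rate need not hold here. PEO-4 replicate 2 held 10 of the 33 flags and replicate 3 held 6, and each T1074 library held 3 to 5.

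In PEO-4 replicate 2 the values far from the others, in CPM, were 222 for DDIT4, 254 for H2BC12, 304.3 for HES1, 214 for HLA-B, 85.8 for ID1, 152 for ISG15, 106 for MCM2, 19.1 for PIK3CD, 597 for RPS29 and 65.1 for TAP1. In PEO-4 replicate 3 they were 1.88 for DUSP4, 269 for ESR1, 180.1 for H1-4, 448 for KRT7, 34.5 for LAD1 and 25.3 for MIR205HG. Protein-coding genes took 60.9% of the counts in PEO-4 replicate 1.

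In T1074 replicate 1 the total count was 19780815, rRNA and rDNA-like genes took 21.4% of it, ERBB3 stood at 14.4 CPM and IGF2BP1 at 22.2 CPM. In T1074 replicate 2 the values were 9.80 CPM for ABCA6, 26.1 CPM for CXCL8, 41.9 CPM for HK2 and 139 CPM for PARP1. In T1074 replicate 3 they were 19.5 CPM for CTSS, 131 CPM for DSP, 911 CPM for ISG15, 121 CPM for MTAP and 384 CPM for RPS3. In T1074 replicate 4 they were 2273 CPM for ACTG1, 350 CPM for CDKN2A and 158 CPM for TGFB2.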

How the results depend on the processing

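Genes higher and lower in PEO-4 numbered 7215 and 6452, and 6868 to 7576 and 6181 to 6792 with 1 library left out. At 2-fold or more 4131 were lower. Members that passed numbered 8 for cancer-testis antigens with no filter beyond 1 count. At 50 counts or more in 4 libraries they numbered 3 for these antigens, 2 for leukocyte, 3 for endothelial and 2 for ciliated genes. At an adjusted p of 0.01 they numbered 15 for histones and 3 for leukocyte genes, and with 1 library left out 17 to 36 (36 without T1074 replicate 3) and 3 to 5 (3 without T1074 replicate 2). At 2-fold or more they numbered 11 for p53 target genes, 10 for histones, 13 for glycolysis, 13 for cholesterol and fatty acid synthesis, 11 for NRF2 targets and 9 for the respiratory chain. The stricter threshold or filter keeps fewer genes by construction, and the cause was not tested for the left-out libraries. The 7SL share reversed from counts to TPM, to a difference of -6.54 percentage points (exact permutation p = 0.286).

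With the replicate number as a block, 7017 genes were higher and 6181 lower. No pairing by number was seen. Of 255 named genes with a result 232 passed, 21 lost the call under at least 1 of 19 alternatives, 9 gained it and 0 changed sign. Counting PEO-4 replicates 1 and 4 as 1 sample was chosen after seeing the data, and DSP, H1-2, ISG15 and MET were among 6 named genes that lost their calls under it. Of 32 window medians 25 moved by more than the spread over libraries and 0 reversed. DESeq2 gave 7120 and 6652 genes, and the fit of all 12 libraries 7225 and 7524, with a median shift of -0.11. Depth limits genes near 3 counts per library.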

Other observations

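Ribosomal protein genes were chosen after their values were seen and carry no test as a group. Of 81 tested, 67 were higher in PEO-4 and 5 lower, with a median log2 fold change of 1.36, and 56 were higher by at least 2-fold, against 38.7% and 27.0% of all genes tested. Their summed level was 59050 to 81630 CPM in PEO-4 and 18300 to 32360 CPM in T1074.

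PEO-4 replicates 1 and 4 and replicates 2 and 3 stood apart in several genes. Replicates 1 and 4 had the higher GREB1 (537 and 535 CPM against 218 and 227 CPM) and PGR (67.8 and 66.9 CPM against 10.3 and 13.6 CPM) and the lower summed level of mitosis genes (684.9 and 708.6 CPM against 1406 and 1042 CPM). What set these libraries apart was not tested.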
